A study of Homo sapiens with 6 samples.

Results

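The genes described here are TRIM22 and 9 other TRIM proteins known for antiviral roles: TRIM5, TRIM14, TRIM21, TRIM25, TRIM26, TRIM34, TRIM38, TRIM56 and PML (also called TRIM19). All 10 symbols are listed among the 21850 genes of the deposited expression table. TRIM22 was selected on its higher count after PRKCN knockdown in these same libraries, and the others were chosen by their role as its relatives. The difference between the 2 conditions is therefore given for the 10 genes as a description, with no test.

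TRIM proteins are named for a tripartite motif of a RING domain, B-box domains and a coiled coil. The RING domain makes most of them E3 ubiquitin ligases, enzymes that pass ubiquitin from an E2 enzyme to a target protein. Many TRIM genes are induced by interferon, which signals through the receptor-bound kinases JAK1 and TYK2 to the transcription factor complex ISGF3, which includes STAT2 and IRF9. Some antiviral members block incoming retroviral capsids or viral transcription, and others modify the proteins that sense viral RNA and DNA.

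The data are RNA-seq libraries from MM.1S, an established human multiple myeloma cell line from a cancer of plasma cells. Both groups were transduced with lentivirus and collected after 3 days. The 3 shPRKCN libraries received an shRNA against PRKCN, a kinase listed under its symbol PRKD3, and the 3 shNT libraries received a scramble shRNA. There was no untransduced sample, all libraries come from 1 cell line labelled as wild type, and 1 knockdown condition was sequenced. Nothing states that the libraries of a group came from separate cultures, so the spread between them may be technical.

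Library totals ran from 35625564 to 37730003 counts. PRKD3 was 1262 ± 41.7 CPM in shNT and 517 ± 23.4 CPM in shPRKCN (counts scaled to library size, mean ± SD, n = 3 per group), a log2 fold change of -1.29 (SE 0.0343, edgeR quasi-likelihood test with Benjamini-Hochberg adjusted p = 8.2e-43). All 8 plasma cell markers were above 1 FPKM (fragments scaled by gene length and library total). Their summed level was 1719 to 1785 FPKM in shNT and 1175 to 1201 FPKM in shPRKCN. The markers did not all fall, with group means of 240 and 276 FPKM for SDC1 and 6.44 and 6.47 FPKM for CD38. The rest were lower in shPRKCN, among them XBP1 at 468 and 195 FPKM. The summed B cell markers stayed under 0.1 FPKM in every library. The summed T and NK cell markers went from between 7.83 and 8.66 FPKM to between 20.5 and 22.9 FPKM, nearly all of it CD3E, with the defining marker CD3D at 0 or 1 count. The myeloid sum was 9.26 to 10.97 FPKM in shNT and 6.24 to 7.56 FPKM in shPRKCN, nearly all CD68, and LYZ had at most 2 counts. The epithelial and stromal sum was 152 to 162 FPKM in shNT and 46.6 to 47.6 FPKM in shPRKCN, nearly all VIM, with COL1A1 at 3 to 6 counts. The part of these shifts in the results was not tested, and in bulk RNA fewer cells with a transcript and less of it per cell cannot be told apart.

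The levels of the antiviral TRIM genes spanned a wide range in control cells. On the FPKM scale, which allows for gene length, the order of the shNT means was TRIM25 (44.8), TRIM26 (22.9), TRIM21 (17.4), TRIM56 (9.69), PML (6.83), TRIM38 (4.16), TRIM5 (3.39), TRIM14 (1.87), TRIM22 (0.337) and TRIM34 (0.0073). No neighbours in this order overlapped between their 3 shNT libraries. TRIM25 stood at the 94.8th percentile of all listed genes and TRIM22 at the 44.6th, so the gene with the highest ratio between conditions was the second lowest of the 10 in control cells. In shPRKCN libraries the order changed at 1 place, with TRIM5 (3.98 FPKM) above TRIM38 (3.66 FPKM), and the libraries of these 2 genes overlapped. TRIM22 reached 2.28 FPKM in shPRKCN, where its libraries overlapped with those of TRIM14 (2.46 FPKM), while TRIM25 was at 47.6 FPKM.

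**Figure D1:**
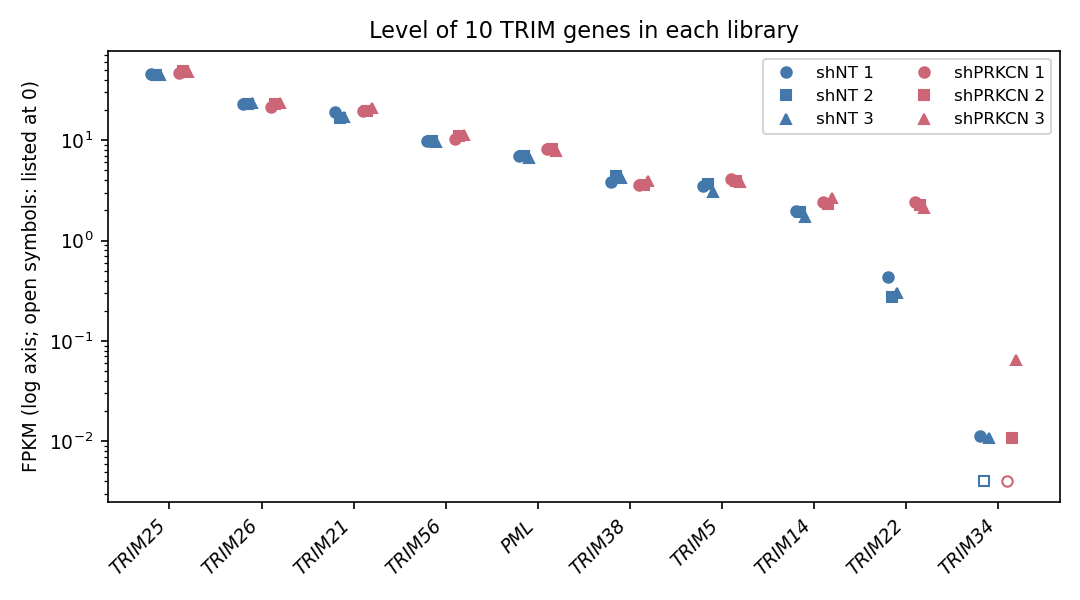
FPKM of the 10 TRIM genes in each of the 6 libraries on a log axis, with shNT in blue and shPRKCN in red and open symbols for libraries listed at 0. Genes run from TRIM25 on the left, at 44.8 FPKM on average in shNT, to TRIM34 on the right, and TRIM22 shows a gap between its groups, from 0.337 to 2.28 FPKM.

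TRIM5, TRIM22 and TRIM34 lie side by side on chromosome 11. TRIM5 is the capsid-binding factor that blocks incoming retroviruses, TRIM22 is an interferon-induced relative known for blocking viral transcription, and TRIM34 is a further capsid-binding relative. TRIM22 had 45, 29 and 33 counts in the shNT libraries and 260, 247 and 230 counts in the shPRKCN libraries. Every shPRKCN library was above every shNT library. In CPM these were 1.27, 0.789 and 0.881 against 6.96, 6.64 and 6.06, giving means of 0.981 ± 0.258 and 6.55 ± 0.460 (SD, n = 3). The fitted log2 fold change was 2.74 (SE 0.190), a ratio of 6.68, and it lay between 2.61 and 2.97 when each library was left out in turn. On the log2(FPKM + 1) scale, which understates ratios of low genes, the difference was 1.30.

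TRIM5 had 15.7, 16.3 and 13.7 CPM in shNT and 18.2, 17.8 and 17.0 CPM in shPRKCN. The groups did not overlap, but the means differed by little beside TRIM22, at 15.2 ± 1.38 and 17.6 ± 0.599 CPM, with a log2 fold change of 0.21 (SE 0.0811) that was 0.14 without shNT replicate 3. TRIM34 had 1, 0 and 1 counts in shNT and 0, 1 and 6 counts in shPRKCN. It was at or below the floor of 3 counts in 5 of the 6 libraries and was left out of the fit, so a difference in TRIM34 was not detectable at this depth. TRIM34 lies within the span of TRIM5 on the opposite strand, and how the counting treated strand is not given in the sources used here. TRIM22 overlaps LOC124902620 in the annotation, a noncoding RNA that is not among the listed genes. Of 4697 stretches of 50 bases in protein-coding TRIM22 transcripts, 0 occurred in those of the rest of the 10 genes or of TRIM6. TRIM5 shared 14 such stretches with TRIM6, and further TRIM genes were not compared.

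TRIM14, TRIM25, TRIM26, TRIM38 and TRIM56 act on the sensors of viral RNA and DNA and on the kinases below them. TRIM14 lacks a RING domain and serves as an adaptor of MAVS, the mitochondrial platform for RNA sensing. It had 20.02, 19.6 and 17.7 CPM in shNT and 24.2, 23.7 and 26.5 CPM in shPRKCN. All shPRKCN libraries were above the shNT libraries, and the means of 19.1 ± 1.23 and 24.8 ± 1.48 CPM gave a log2 fold change of 0.38 (SE 0.0703), the next highest after TRIM22. TRIM14 overlaps NANS in the annotation.

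TRIM25 attaches ubiquitin chains to the RNA sensor RIG-I and is a cofactor of the zinc-finger antiviral protein ZAP. It had 263, 257 and 259 CPM in shNT and 265, 281 and 269 CPM in shPRKCN. Its most abundant shNT library lay just under the lowest shPRKCN library, and the log2 fold change was 0.07 (SE 0.0347), or 0.04 without shPRKCN replicate 2. TRIM56, a ligase that acts on the DNA sensing pathway of cGAS and STING, had 108, 108 and 105 CPM in shNT and 111, 120 and 122 CPM in shPRKCN. The groups were apart, with a log2 fold change of 0.14 (SE 0.0409).

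TRIM26, which binds the kinase TBK1 and its adaptors, had 81.3, 81.4 and 82.9 CPM in shNT and 75.3, 82.3 and 81.4 CPM in shPRKCN. It was the 1 fitted gene of the set whose groups overlapped. Its log2 fold change was -0.04 (SE 0.0441), and without shPRKCN replicate 1 the sign turned, at 0.0006. TRIM38, known for limiting inflammatory signalling by removing TAB2 and for SUMO modification of cGAS, had 37.5, 42.6 and 41.3 CPM in shNT and 34.1, 34.5 and 36.9 CPM in shPRKCN. Every shPRKCN library was below every shNT library, and the log2 fold change was -0.20 (SE 0.0565).

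TRIM21 is the cytosolic antibody receptor, which binds the constant part of immunoglobulin on virus particles that enter a cell. It had 37.0, 32.0 and 33.0 CPM in shNT and 37.2, 38.1 and 39.6 CPM in shPRKCN. The highest shNT library came within 1 CPM of the lowest shPRKCN library, and the log2 fold change was 0.17 (SE 0.0575). PML is the scaffold of the nuclear bodies that carry its name. PML had 53.3, 53.2 and 51.1 CPM in shNT and 61.5, 63.3 and 58.1 CPM in shPRKCN. The groups were apart, at 52.5 ± 1.24 and 61.0 ± 2.60 CPM, with a log2 fold change of 0.22 (SE 0.0487).

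**Figure D2:**
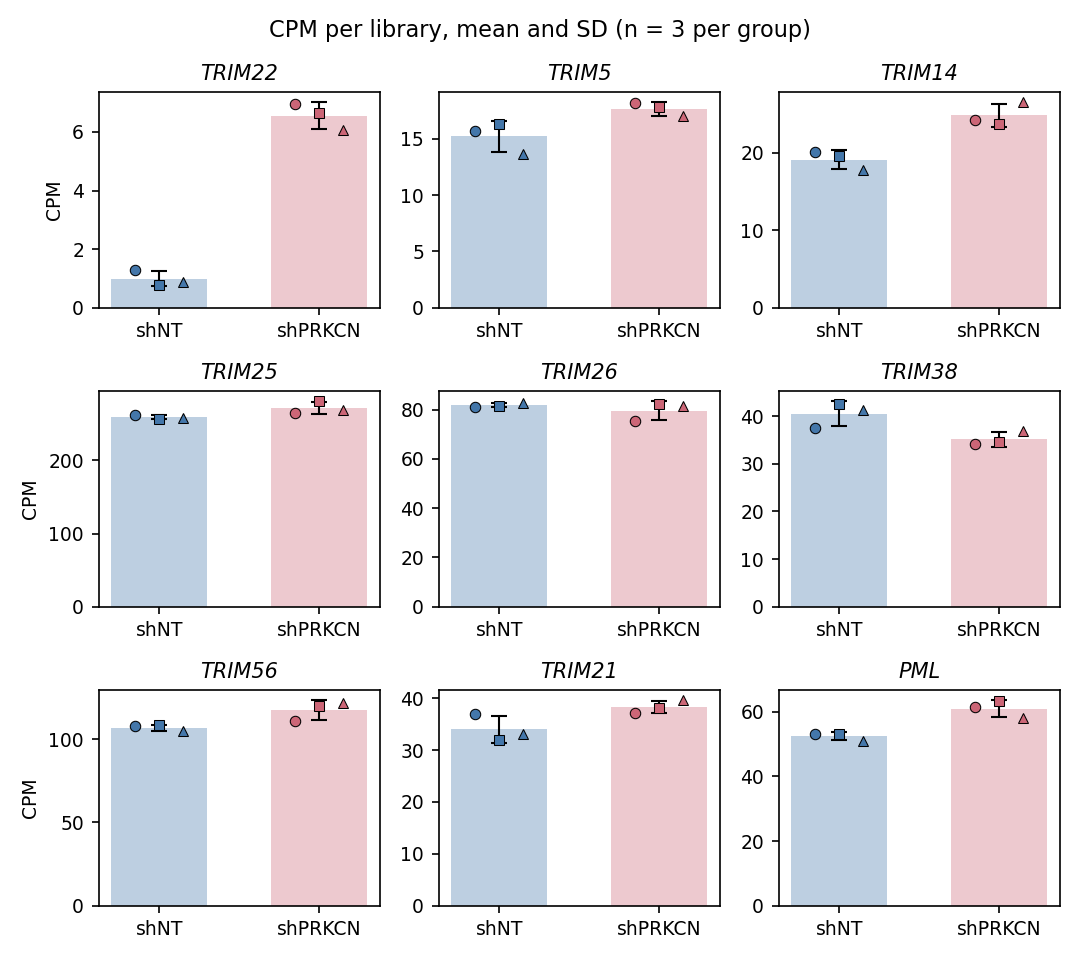
CPM of the 9 TRIM genes that entered the fit, with a linear axis from 0 for each gene, points for the 6 libraries, bars for the group means and error bars for the SD (n = 3 per group). TRIM22 was at 0.981 CPM in shNT and 6.55 CPM in shPRKCN, TRIM38 and TRIM26 had the lower mean in shPRKCN, and the other 6 genes had means from 1.05 to 1.30 times those of shNT.

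Across the set, TRIM22 was the 1 gene of 9 fitted with a log2 fold change beyond 0.58, the fold limit used for calling a gene. Over all 13971 genes tested, 6.15% were called higher and 10.6% were called lower by this limit together with an adjusted p under 0.05. The libraries of the 2 groups did not overlap in 8 of the 9 genes, against 58.8% of all genes tested. The median log2 fold change of the 9 genes was 0.17, it was 0.15 without TRIM22, and over all genes tested it was 0.001. Because TRIM22 was chosen on this contrast, nothing is read from these counts. TRIM22 lay well above the fold limit, and the nearest below it was TRIM14 at 0.38.

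The other genes of the TRIM family, which were not chosen for a pattern, did not move together. Of 51 listed, 37 passed the filter on low counts. At adjusted p under 0.05 (edgeR quasi-likelihood test with Benjamini-Hochberg adjustment), 9 were higher (24.3%) and 10 were lower (27.0%), against 26.5% higher and 27.8% lower over all genes tested. Their median log2 fold change was -0.02, with a range from -1.66 to 2.05.

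Of the 37 other TRIM genes tested, 3 were called lower, against 10.6% of all genes tested, namely TRIM36, MID1 and TRIM45. TRIM36, a ligase linked to microtubules and cell division, had 160, 191 and 166 counts in shNT and 38, 57 and 73 in shPRKCN. Its log2 fold change was -1.66 (SE 0.195, edgeR adjusted p = 3.15e-11). MID1 (TRIM18), a microtubule-associated ligase that controls the phosphatase PP2A, fell from 11.7 to 5.87 CPM, a log2 fold change of -1.0 (SE 0.111, edgeR adjusted p = 3.66e-12). TRIM45 fell by 0.67 on the log2 scale (SE 0.241, edgeR adjusted p = 1.47e-02).

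Of the same 37 genes, 2 were called higher, against 6.15% of all genes tested, and both are named here after their values were seen. TRIM40 ranged over 0 to 7 counts in control and 11 to 20 counts in shPRKCN libraries, with a log2 fold change of 2.05 (SE 0.632, edgeR adjusted p = 4.64e-03). TRIM2 ranged over 26 to 48 counts in control and 48 to 86 counts in shPRKCN libraries, so that its groups met at 48 counts, with a log2 fold change of 0.84 (SE 0.278, edgeR adjusted p = 8.08e-03). TRIM68, a relative elsewhere on the short arm of chromosome 11, had a log2 fold change of -0.13 (SE 0.0956, edgeR adjusted p = 0.246). TRIM6 and the readthrough transcript TRIM6-TRIM34 are not listed in the table and were not taken as 0.

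**Figure D3:**
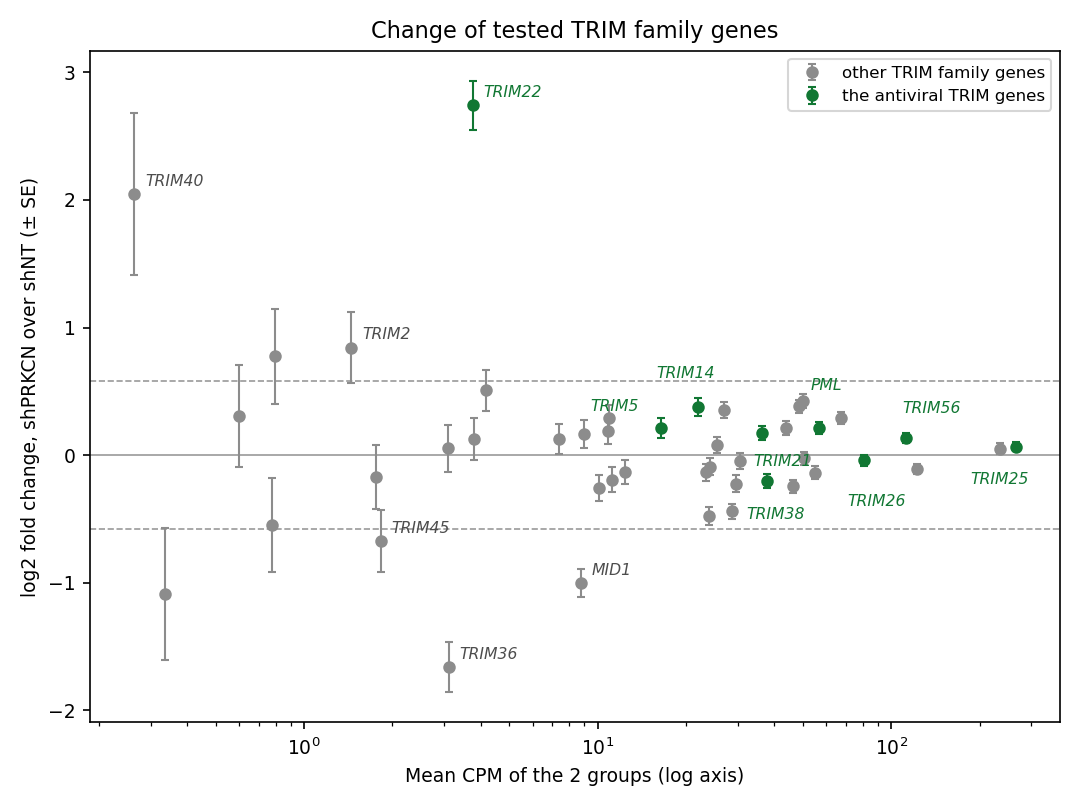
Log2 fold change of shPRKCN over shNT (error bars, SE) against the mean CPM of the 2 groups on a log axis for the 46 TRIM family genes fitted, with the 9 antiviral genes in green and the other 37 in grey. Dashed lines mark the fold limit of 0.58, which TRIM22 passes at 2.74, while the other green genes lie between -0.20 and 0.38.

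The promoters of the antiviral TRIM genes were compared for short motifs, since interferon acts through sites that ISGF3 and other IRF proteins bind. RefSeq promoters (GRCh38.p14) were found for 8 of the 10 genes, not for TRIM22 and PML, and the 250 bases before each start were searched on both strands. The IRF core, written GAAANNGAAA, was found in 4 of the 8, namely TRIM5, TRIM14, TRIM26 and TRIM34, and in 3.02% of 35116 promoters of the same length. The first number counts genes, and TRIM34 has 2 listed starts, while the percentage counts promoters. The genes were also chosen for antiviral roles, so nothing is read from the difference. The windows around these matches, 60 bases each, are shown because they place the core close to the listed starts of TRIM5 and TRIM14. The core is in capitals as it reads on the gene's strand.
TRIM5, chr11:5685075-5685134, minus strand: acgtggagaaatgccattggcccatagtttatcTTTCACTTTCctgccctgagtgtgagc
TRIM14, chr9:98119223-98119282, minus strand: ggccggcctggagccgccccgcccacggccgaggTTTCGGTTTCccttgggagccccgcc
TRIM26, chr6:30213563-30213622, minus strand: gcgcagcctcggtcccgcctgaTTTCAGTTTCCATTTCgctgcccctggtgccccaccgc
TRIM34, chr11:5624886-5624945, plus strand: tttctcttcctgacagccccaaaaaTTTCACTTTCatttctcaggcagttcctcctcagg

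The core lay 27 to 18 bases before the listed start in TRIM5 and 26 to 17 bases before it in TRIM14. The first 20 bases after the listed start were found in a protein-coding transcript of TRIM5 but in none of TRIM14. TRIM26 held 2 overlapping cores between 194 and 179 bases before its start, and TRIM34 held its core at 90 to 81 bases before 1 of its 2 listed starts. The 4 genes differed in what was measured, with log2 fold changes of 0.38 for TRIM14, 0.21 for TRIM5 and -0.04 for TRIM26, and TRIM34 near 0 counts. The core was not found in the window of TRIM21, TRIM25, TRIM38 or TRIM56, whose log2 fold changes ran from -0.20 to 0.17. For TRIM21 and TRIM25, as for TRIM14, the first 20 bases after the listed start were in no protein-coding transcript of the gene. The placement of the TRIM21 and TRIM25 windows is therefore not backed by these transcripts, and the missing core there is uncertain. A composite ETS and IRF core, GGAANNGAAA, was found in TRIM34, before both of its starts, and in 2.41% of all promoters. The GAS core, TTCNNNGAA, was also searched, and was found in 0 of the 8 genes and in 6.57% of all promoters. A match describes letters in the window and not a bound site.

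TRIM22 spans chr11:5689790-5710863 in GRCh38.p14, and TRIM5 spans chr11:5588635-5685074 on the other strand. The stretch between the 2 genes is 4716 bases, and TRIM5 had the higher FPKM of the pair in every library. Leaving out TRIM5, TRIM22 and TRIM34, of 72 annotated genes with a start within 500 kb of TRIM22, 14 are listed and 2 passed the filter, both globin genes. HBB fell from 3.17 to 1.01 CPM (log2 fold change -1.65, SE 0.241, edgeR adjusted p = 1.85e-08). HBD fell from 16.2 to 7.996 CPM (log2 fold change -1.01, SE 0.0964, edgeR adjusted p = 1.38e-14). Elsewhere, TRIM21 spans chr11:4384897-4393702, TRIM14 chr9:98035797-98119222, TRIM25 chr17:56887909-56914049, TRIM26 chr6:30184455-30213406, TRIM38 chr6:25962802-25991231, TRIM56 chr7:101085481-101097967 and PML chr15:73994716-74047827.

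The pathway that induces many TRIM genes was read from a list of 25 interferon receptor and signalling genes, all tested. At adjusted p under 0.05, 9 were higher (36%) and 7 were lower (28.0%), against 26.5% and 27.8% of all genes tested, and the median log2 fold change was 0.08. IRF9, the DNA-binding subunit of ISGF3, had 467, 417 and 443 counts in shNT and 692, 626 and 687 in shPRKCN, a log2 fold change of 0.56 (SE 0.0848, edgeR adjusted p = 6.01e-08). Its partner STAT2 had a log2 fold change of -0.06 (SE 0.0363, edgeR adjusted p = 0.145).

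Among the receptor chains and kinases, IFNAR1 fell by 0.12 and IFNAR2 rose by 0.10 on the log2 scale (edgeR adjusted p = 3.56e-03 and 1.49e-02). The kinases JAK1 and TYK2 rose by 0.25 and 0.29 (edgeR adjusted p = 4.91e-09 and 5.9e-08). JAK2, which serves the receptor of interferon gamma, fell from 15.2 to 8.70 CPM (log2 fold change -0.81, SE 0.0941, edgeR adjusted p = 2.32e-11). SOCS3, a feedback inhibitor of cytokine signalling, fell by 1.12 on the log2 scale (SE 0.271, edgeR adjusted p = 3.25e-04).

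The IRF transcription factors also moved in different directions. IRF4, a factor that plasma and myeloma cells depend on, fell from 624 ± 12.5 to 173 ± 3.19 CPM (n = 3 per group), a log2 fold change of -1.85 (SE 0.0348, edgeR adjusted p = 5.66e-52). IRF1 rose from 96.4 to 131 CPM (log2 fold change 0.45, SE 0.0402, edgeR adjusted p = 1.69e-15), while IRF7 had a log2 fold change of 0.17 (SE 0.0823, edgeR adjusted p = 0.0755). Of 21 interferon genes, 3 are listed, and none of those 3 exceeded 2 counts in a library.

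The sensing proteins that these TRIM proteins bind or modify changed in both directions. Of 18 genes, all tested, 6 were higher (33.3%) and 9 were lower (50%), against 26.5% and 27.8% of all genes tested, and their median log2 fold change was -0.11. Without shNT replicate 3 the number higher was 3. RIG-I, the target of TRIM25, was listed as DDX58 and rose from 7.15 to 10.6 CPM (log2 fold change 0.57, SE 0.108, edgeR adjusted p = 7.64e-06). MAVS, the partner of TRIM14, rose by 0.13 on the log2 scale (edgeR adjusted p = 4.68e-03). The DNA sensing pair served by TRIM56 and TRIM38 fell. CGAS went from 27.4 to 17.2 CPM (log2 fold change -0.67, SE 0.0713, edgeR adjusted p = 1.19e-12), and STING1 went from 51, 46 and 53 counts to 22, 27 and 23 (log2 fold change -1.09, SE 0.328, edgeR adjusted p = 3.56e-03).

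TRIM ligases work with E2 enzymes, and TRIM25 also passes on ISG15, a ubiquitin-like modifier. Of 16 such conjugation partners, all tested, 5 were higher (31.2%) and 7 were lower (43.8%), against 26.5% and 27.8% of all genes tested, and their median log2 fold change was -0.01. The 2 called genes both fell, where 10.6% of all genes tested were called lower and 6.15% higher. UBE2V2, a partner of UBE2N in making K63-linked chains, went from 75.8 to 45.04 CPM (log2 fold change -0.75, SE 0.05, edgeR adjusted p = 2.35e-21). UBE2W, which places the first ubiquitin on TRIM5 and TRIM21, went from 19.4 to 12.2 CPM (log2 fold change -0.67, SE 0.0827, edgeR adjusted p = 1.42e-10). The ISG15 genes of the list, named after their values were seen, changed by less than the fold limit and in both directions. ISG15 had a log2 fold change of 0.54 (edgeR adjusted p = 5.49e-03), its E1 enzyme UBA7 0.55 (5.43e-10) and its E2 enzyme UBE2L6 0.37 (4.83e-12). HERC5, the main E3 ligase for ISG15, fell by 0.29 on the log2 scale (edgeR adjusted p = 3.69e-03).

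The proteins that gather with PML in nuclear bodies were mixed. Of 16 genes, all tested, 6 were higher (37.5%) and 5 were lower (31.2%), against 26.5% and 27.8% of all genes tested, and their median log2 fold change was 0.01. Without shNT replicate 1, and likewise without shPRKCN replicate 1, the number lower was 3. SUMO3, a ubiquitin-like modifier attached to PML, fell from 263 to 150 CPM (log2 fold change -0.81, SE 0.0369, edgeR adjusted p = 8.67e-30). ISG20, an interferon-induced RNA exonuclease, fell from 29.2 to 18.2 CPM (log2 fold change -0.68, SE 0.0705, edgeR adjusted p = 3.25e-13). The core components SP100 and DAXX had log2 fold changes of -0.01 (SE 0.0471, edgeR adjusted p = 0.879) and 0.03 (SE 0.0429, edgeR adjusted p = 0.577). SP110, a relative of SP100 named after its values were seen, rose by 0.57 on the log2 scale (SE 0.0559, edgeR adjusted p = 4.88e-14).

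Other host factors with roles in virus infection, most of them known to restrict viruses, also moved in both directions. Of 21 genes, 20 are listed and 19 were tested, of which 7 were higher (36.8%) and 9 were lower (47.4%), against 26.5% and 27.8% of all genes tested, and their median log2 fold change was -0.04. MX1, a GTPase that blocks influenza virus, rose from 67.3 to 115 CPM (log2 fold change 0.77, SE 0.0436, edgeR adjusted p = 8.08e-25). IFITM1, which hinders viral entry, rose from 8.70 to 14.8 CPM (log2 fold change 0.77, SE 0.101, edgeR adjusted p = 1.18e-09). Their counterpart MX2, which blocks HIV before nuclear import, fell from 18.6 to 11.6 CPM (log2 fold change -0.68, SE 0.0834, edgeR adjusted p = 1.16e-10). The cytidine deaminase APOBEC3H fell by 1.06 (SE 0.183, edgeR adjusted p = 1.03e-06) and the GTPase GBP2 by 0.66 (SE 0.2, edgeR adjusted p = 3.86e-03) on the log2 scale.

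**Figure D4:**
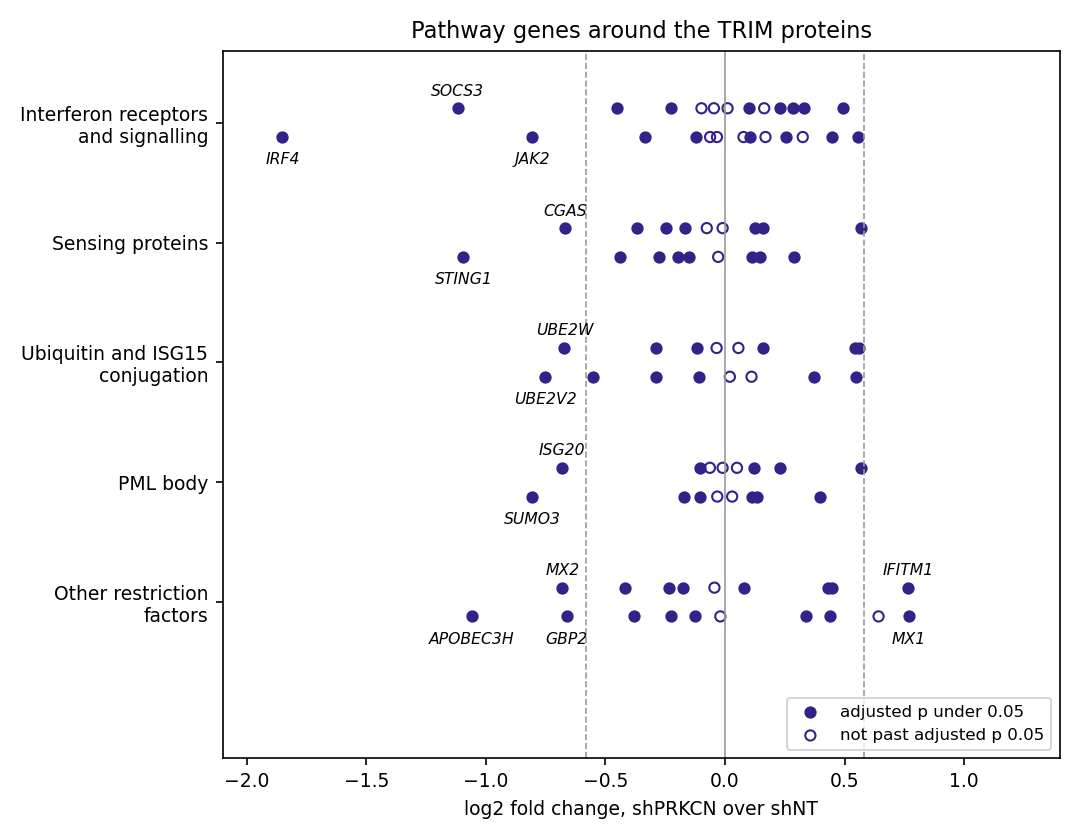
Log2 fold change of shPRKCN over shNT for the tested genes of 5 pathway lists, 1 point per gene in 2 staggered lines per list, filled where the edgeR adjusted p was under 0.05. Dashed lines mark the fold limit of 0.58, and the labelled genes past it run from IRF4 at -1.85 to MX1 and IFITM1 at 0.77.

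Among the genes whose log2 CPM followed TRIM22 most closely over the 6 libraries were SSH1 (Pearson r = 0.9986), ANKH (0.9984), AUP1 (0.9984) and PITPNC1 (0.9977), out of 11658 genes compared. The libraries form 2 groups that share the knockdown contrast, so these values mostly restate the step between conditions and are given as a description. The size of that step differed widely among them, with log2 fold changes of 0.69 for SSH1, 0.49 for ANKH, 0.11 for AUP1 and 0.66 for PITPNC1, all smaller than that of TRIM22.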

How the data were processed

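Total RNA of 6 MM.1S libraries (3 shNT, 3 shPRKCN) was sequenced. Raw counts per gene, and FPKM computed from them by the authors, were deposited as 2 tables. The submitters' processing notes name FastQC, HISAT2, StringTie and GRCh38.p14. The annotation, counting program and strand setting are not given in the sources used here. Groups were taken from the treatment labels.

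Counts were filtered with filterByExpr, scaled by TMM and tested with edgeR 4.0.16 (R 4.3.3) by quasi-likelihood F-test on group over all genes, with Benjamini-Hochberg adjustment. A call required an adjusted p under 0.05 and a log2 difference larger than 0.58, limits used by the study with DESeq2. CPM were computed from the TMM-scaled totals. A count of 3 was taken as the floor. Library totals, at 35625564 to 37730003 counts, set the precision, and counting error is only part of the spread. Counts within a group differed by more than sampling noise (chi-square per degree of freedom 3.38 to 4.80), so no library was a repeat deposit.

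The members and gene lists were chosen with earlier results of these data known. Named in each list were at most 3 genes per direction (5 for other TRIM genes), the called genes of largest change whose groups did not overlap and whose mean count was 50 or more, plus a set named whatever its value. Genes chosen after their values were seen are marked as such, and some genes are not reported here. Alternatives were other scalings, filters, DESeq2 1.42.0, leaving out each library, a replicate block, and limma 3.58.1 on log2(FPKM + pseudocount of 1 or 0.1). The fitting steps were tested on simulated data.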

Additional observations from a re-analysis of the deposited data

How the results depend on the processing

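The direction of the difference was the same in all 15 alternative settings for 8 of the 9 fitted TRIM genes, and TRIM26 turned in 1 of them. TRIM22 ranged from 2.74 to 2.76 over the alternative count fits and was 2.46 on the log2(FPKM + 0.1) scale. Called genes numbered 859 higher and 1475 lower, 813 and 1445 by DESeq2, and 922 and 1411 when scaled by library totals alone. With limma on log2(FPKM + 1) they numbered 315 and 648, and 310 and 635 with a filter at 1 FPKM, a scale that compresses low genes by construction. In both directions the DESeq2 numbers here lie below those the study reported with DESeq2 at the same limits, and the reason was not tested. The other TRIM genes that were lower numbered 6 on log2(FPKM + 1), 5 with the pseudocount of 0.1 and 4 with the filter. The PML body genes that were lower numbered 3 in these 3 settings, and the sensing genes that were lower numbered 5 with either pseudocount. The cause was not tested. Without a filter, 2 neighbours of TRIM22 were higher, against 0 of the 2 tested with it, both of which were lower. The neighbours that the filter removed had no more than 8 counts in any library. When 1 library was left out, the number of sensing genes higher was 3 to 6 and of PML body genes lower 3 to 5. The labels do not say that replicate numbers pair the samples. Same-numbered libraries had correlations of deviation of -0.059, -0.02 and -0.016, so no shared shift was seen, but such values cannot exclude a pairing. With a replicate block, 854 genes were called higher and 1463 lower, and TRIM22 stood at 2.75. Depth limits TRIM34, and it leaves TRIM22 in shNT resting on 29 to 45 counts.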

Other observations

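The table lists a few transcripts that share sequence with TRIM genes outside the antiviral set. TRIM59 fell by 0.44 on the log2 scale (SE 0.0607, edgeR adjusted p = 3.94e-09), whereas the readthrough TRIM59-IFT80 had a log2 fold change of 0.29 (SE 0.219, edgeR adjusted p = 0.261). TRIM52 had a log2 fold change of 0.08 (SE 0.0639, edgeR adjusted p = 0.300) and its antisense partner TRIM52-AS1 one of -0.31 (SE 0.139, edgeR adjusted p = 0.0527). How the counting divided reads between such overlapping transcripts is not given in the sources used here. These genes were picked after their values were seen.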
